A study of Mus musculus with 12 samples.

Results

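Fatty acid and triglyceride synthesis was followed in mouse liver through 34 listed genes, from the transcription factors of the pathway to the proteins of the lipid droplet. A gene was measured by the probe sets annotated with its symbol alone, and where a gene had several, the one with the highest mean over the 12 arrays was used. On this rule 33 of the 34 genes were measured, out of 12393 named genes in the table, and Agpat2 was not analysed here. The livers came from C57Bl/6J mice aged 6 to 8 weeks that were either wild type (WT) or Aag knock-out (KO). Aag, gene symbol Mpg, encodes the alkyladenine DNA glycosylase, a repair enzyme that cuts alkylated bases out of DNA. Treated mice received methyl methane sulfonate (MMS), an agent that alkylates DNA, as 1 injection of 75 mg/kg into the peritoneum, and livers were taken 6 h later. The 4 groups of 3 animals were MMS-treated KO, untreated KO, MMS-treated WT and untreated WT. Untreated stands here for the labels' control; whether those mice received a vehicle, and at what time of day any liver was taken, was not given.

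Hepatocytes make fatty acids from cytosolic acetyl-CoA: citrate and acetate supply the acetyl-CoA, acetyl-CoA carboxylase turns it into malonyl-CoA, and fatty acid synthase builds palmitate, which is then elongated, desaturated and joined to glycerol as triglyceride. The transcription factors SREBP-1c, from the gene Srebf1, and ChREBP, from Mlxipl, switch these genes on after feeding, under insulin and glucose. SREBP-1c binds sterol regulatory elements in promoters, often beside a CCAAT box bound by NF-Y, and many of these genes also follow the liver clock. Triglyceride is stored in droplets coated by perilipins, released again by lipases, or exported in lipoproteins.

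Promoter sequence of 28 of the 34 listed genes was found in the RefSeq table (GRCm38.p6), and 250 bases before each listed start were searched on both strands. Scd1, Scd2, Elovl3, Fads1, Dgat1 and Dgat2 had no entry. The core letters of a sterol regulatory element, TCACCC, stood in 9 of the 28 genes (32.1%), against 15.6% of 27025 genes in that table. CCAAT stood in 15 of the 28 (53.6%), against 37.5% of all genes, and the E-box CACGTG in 4 of the 28 (14.3%), against 6.86%. A gene with several starts counted if any of its windows matched. Counted by window, the shares were closer. TCACCC stood in 22% of the 41 windows of these genes, against 13.8% of all 32851 windows. CCAAT stood in 39%, against 33.8%, and CACGTG in 9.76%, against 6.02%. The letters were chosen with these promoters and the array results in view, and a match is a description of the letters, not a binding site. Below are the windows of the 4 genes called in a comparison further down that have a TCACCC match, and of Fasn, the central synthase. Each is read 5′ to 3′ on the gene's strand, and capitals mark TCACCC or GGGTGA and CCAAT or ATTGG.
Srebf1, the most 3′ of 3 starts, chr11:60210472-60210721, minus strand: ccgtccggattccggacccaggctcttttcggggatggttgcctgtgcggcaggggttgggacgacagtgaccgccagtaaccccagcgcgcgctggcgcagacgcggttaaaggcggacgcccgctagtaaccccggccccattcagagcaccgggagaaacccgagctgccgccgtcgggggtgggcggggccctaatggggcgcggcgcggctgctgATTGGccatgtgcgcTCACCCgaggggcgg
Acss2, chr2:155517793-155518042, plus strand: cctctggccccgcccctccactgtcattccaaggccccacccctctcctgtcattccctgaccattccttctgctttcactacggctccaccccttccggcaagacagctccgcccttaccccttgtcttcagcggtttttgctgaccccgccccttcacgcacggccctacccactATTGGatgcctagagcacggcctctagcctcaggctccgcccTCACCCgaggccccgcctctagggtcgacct
Gpam, the more 5′ of 2 starts, chr19:55127239-55127488, minus strand: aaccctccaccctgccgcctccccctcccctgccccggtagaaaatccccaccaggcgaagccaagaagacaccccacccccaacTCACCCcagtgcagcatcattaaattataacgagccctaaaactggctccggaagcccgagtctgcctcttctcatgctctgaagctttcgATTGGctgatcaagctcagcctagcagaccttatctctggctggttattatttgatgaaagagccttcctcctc
Pnpla3, chr15:84167566-84167815, plus strand: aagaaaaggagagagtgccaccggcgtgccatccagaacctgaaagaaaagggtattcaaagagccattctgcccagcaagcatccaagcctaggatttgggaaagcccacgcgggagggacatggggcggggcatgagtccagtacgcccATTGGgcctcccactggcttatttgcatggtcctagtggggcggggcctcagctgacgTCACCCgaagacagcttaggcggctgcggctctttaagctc
Fasn, chr11:120824548-120824797, minus strand: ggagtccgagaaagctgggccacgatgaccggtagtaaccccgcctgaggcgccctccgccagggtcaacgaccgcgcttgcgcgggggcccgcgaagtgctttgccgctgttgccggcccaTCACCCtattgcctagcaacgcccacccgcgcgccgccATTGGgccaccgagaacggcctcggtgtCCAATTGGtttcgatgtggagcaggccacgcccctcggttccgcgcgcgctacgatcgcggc
Counting -1 as the base just before the start, TCACCC began at -15 in Srebf1, -31 in Acss2, -41 in Pnpla3, -128 in Fasn and -165 in Gpam. Each of the 5 windows also held CCAAT, once as ATTGG in Srebf1, Acss2, Gpam and Pnpla3, and 3 times in Fasn, where a forward and a reverse match overlap. In Srebf1, Acss2 and Pnpla3 the CCAAT match lay just upstream of TCACCC, starting at -30, -73 and -99, and in Gpam it lay downstream, at -74. The arrays do not show which start of Srebf1 or Gpam was in use, and the other starts of these genes held no TCACCC.

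Expression was read on 12 Affymetrix arrays, 1 per animal, and all values are log2 values as deposited, so that 1 unit is a 2-fold difference. Of the 12 arrays, 3 had their closest array, over all probe sets, in another group. MMS-treated KO animal 3 was closest to an untreated WT array (r = 0.989) and MMS-treated WT animal 1 to an untreated KO array (r = 0.989). Untreated KO animal 3 was closest to an MMS-treated KO array (r = 0.987). The other 9 were closest to an array of their own group, which for MMS-treated WT animal 3 was MMS-treated WT animal 1 (r = 0.987). Results that rest on the KO arrays numbered 3 are given below with and without them. As a check of the genotypes, the dimmer of the 2 Mpg probe sets read 5.75, 5.34 and 5.32 in MMS-treated KO, 5.44, 5.60 and 4.95 in untreated KO, 6.40, 6.94 and 6.80 in MMS-treated WT and 6.21, 6.49 and 6.58 in untreated WT livers. All 6 KO arrays lay below all 6 WT arrays on it. The brighter one overlapped between the genotypes, and where either lies relative to the deletion is not given in the sources used here. Albumin, the defining hepatocyte product, read 14.2 to 14.6 on every array, and 0 of 7 hepatocyte markers were called in any comparison.

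**Figure D1:**
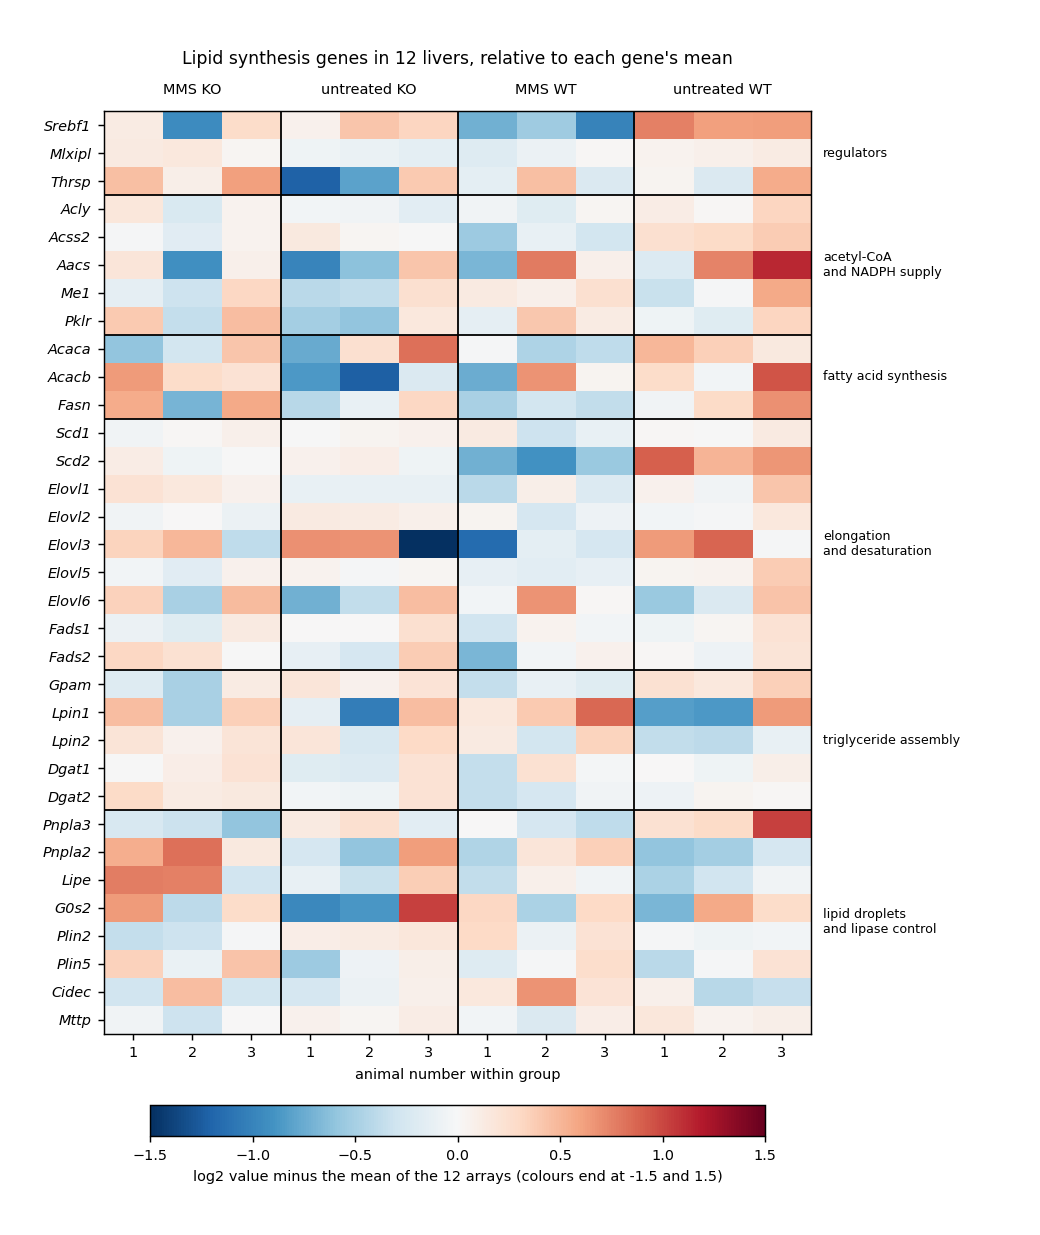
Log2 value of each of the 33 genes (rows, grouped by role) on each of the 12 arrays (columns, 3 animals a group), minus the gene's mean over the 12 arrays; red is above and blue below that mean, and colours end at 1.5 units. Srebf1 and Scd2 are blue in all 3 MMS-treated WT livers and red in all 3 untreated WT livers, and Elovl3 is darkest in untreated KO animal 3.

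In wild-type liver, 3 of the 33 genes were called lower after MMS and none higher when all arrays counted alike: Srebf1, the lipogenic transcription factor, Acss2, the acetyl-CoA synthetase that activates acetate, and Scd2, a stearoyl-CoA desaturase that puts the first double bond into saturated fatty acids. Srebf1 and Scd2 were each 2.67-fold lower and Acss2 1.53-fold lower. With weights estimated for each array, 3 others were called higher, Lpin1 (1.26, adjusted p = 0.0482), Lpin2 (0.56, adjusted p = 0.0202) and Pnpla2 (0.73, adjusted p = 0.0357). The share of all named genes called with these weights was not counted. The core synthesis genes Acaca, Acacb, Fasn, Acly and Scd1 and the acyltransferases Dgat1 and Dgat2 also had negative differences, none of them called, and those of Scd1 and Dgat1 turned positive when arrays were centred on their medians. The liver was measured whole, and there fewer cells of a type and less RNA per cell cannot be told apart.

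Srebf1 read 10.30, 10.48 and 10.02 in MMS-treated WT livers, against 11.77, 11.64 and 11.64 in untreated WT livers. The 3 treated animals were all below the 3 untreated ones, and the difference of -1.42 ± 0.27 (SE) had an adjusted p of 0.0161 in limma, adjusted by Benjamini-Hochberg over all 22626 probe sets. Without untreated WT animal 1, untreated WT animal 3 or MMS-treated WT animal 3 the adjusted p was 0.0717, 0.0571 or 0.0534. Without MMS-treated WT animal 1, the array closest to an untreated KO array, it was 0.0439 for Srebf1 and 0.00852 for Scd2, both still called, and 0.0601 for Acss2. Mlxipl, which encodes ChREBP, read 11.74, 11.85 and 11.94 in MMS-treated WT and 11.98, 12.004 and 12.05 in untreated WT livers, which do not overlap but differ by only -0.17 ± 0.10 (adjusted p = 0.359), a difference that turned positive after median centring. Thrsp, whose product Spot 14 promotes lipogenesis, differed by -0.10 ± 0.37.

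Among the genes that supply acetyl-CoA and NADPH, Acss2 read 11.93, 12.36 and 12.20 in MMS-treated WT livers, against 12.72, 12.76 and 12.85 in untreated WT livers. Every treated value was below every untreated one, with a difference of -0.61 ± 0.13 and an adjusted p of 0.0233. That call was lost when any of 5 of the 6 WT arrays was left out, the exception being MMS-treated WT animal 2, when arrays were centred on their medians, and when the WT arrays were fitted alone. The adjusted p of Acss2 stayed at or below 0.0958 in all 21 alternative settings. The second, dimmer Acss2 probe set read 10.17, 10.59 and 10.63 in MMS-treated WT livers, against 11.56, 11.57 and 11.93 in untreated WT livers, and differed by -1.23 ± 0.16 (adjusted p = 0.00420). Acly, the ATP citrate lyase, read 13.31, 13.17 and 13.39 in MMS-treated WT and 13.47, 13.38 and 13.67 in untreated WT livers, and the groups overlapped. Aacs, Me1 and Pklr, for acetoacetate activation, NADPH and pyruvate, differed by -0.50, 0.08 and 0.11, and none was called.

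The 3 genes of fatty acid synthesis proper had differences of -0.40 to -0.68, and none was called. Fasn, the synthase, read 11.16, 11.37 and 11.28 in MMS-treated WT and 11.59, 11.93 and 12.33 in untreated WT livers. Acaca, the acetyl-CoA carboxylase of the cytosol, read 6.01, 5.57 and 5.65 in MMS-treated WT and 6.52, 6.39 and 6.17 in untreated WT livers. Both genes were below all untreated values in all treated animals, by -0.68 ± 0.33 for Fasn (adjusted p = 0.242) and -0.62 ± 0.36 for Acaca (adjusted p = 0.334). Acacb, the mitochondrial carboxylase that restrains fatty acid oxidation, overlapped, at -0.40 ± 0.37.

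Scd2 read 8.23, 8.05 and 8.39 in MMS-treated WT livers, against 9.85, 9.45 and 9.61 in untreated WT livers. These are the lowest and the highest 3 of the 12 arrays, and the difference was -1.42 ± 0.14 with an adjusted p of 0.00186. It was called under all 21 alternative settings, between -1.51 and -0.91. Its other 2 probe sets differed by -0.47 ± 0.17, with overlap, and -0.83 ± 0.26, and neither was called (adjusted p = 0.122 and 0.0858). The second of them read low, averaging 4.16 in MMS-treated WT and 4.99 in untreated WT livers. Scd1, the main desaturase of hepatocytes, read 14.02, 13.57 and 13.77 in MMS-treated WT and 13.91, 13.88 and 14.03 in untreated WT livers, with a difference of -0.15 ± 0.13 (95% interval -0.43 to 0.13). This probe set read nearly as high as albumin, and whether readings that high still follow the RNA amount was not tested. The dimmer Scd1 probe set differed by -0.51 ± 0.29 and was not called. Among the elongases and the other desaturases, Elovl3 and Elovl5 did not overlap, both lower in MMS-treated WT livers, at -1.01 ± 0.58 and -0.29 ± 0.12. Neither was called, and the remaining 5 genes of this group lay between -0.31 and 0.33.

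In triglyceride assembly, Gpam, the glycerol-3-phosphate acyltransferase that starts the chain, read 12.52, 12.77 and 12.70 in MMS-treated WT and 13.11, 13.03 and 13.24 in untreated WT livers. The groups did not overlap, and the difference of -0.46 ± 0.15 had an adjusted p of 0.0991 with all arrays and 0.0489 without MMS-treated KO animal 3. Its dimmer probe set was called, at -0.75 ± 0.18 (adjusted p = 0.0392), with low means of 5.58 in MMS-treated WT and 6.32 in untreated WT livers. Dgat2, which adds the last acyl chain, read 12.38, 12.50 and 12.69 in MMS-treated WT and 12.67, 12.79 and 12.76 in untreated WT livers, with overlap. Lpin1, a phosphatidate phosphatase, differed by 0.82 ± 0.46, with animal 3 of the untreated WT group at 12.53 against 11.07 and 11.03 in the other two. At the droplet, Pnpla3, a droplet protein that is an SREBP-1c target, read 5.87, 5.61 and 5.48 in MMS-treated WT and 6.08, 6.14 and 6.88 in untreated WT livers, without overlap and at -0.72 ± 0.21 (adjusted p = 0.0725). Cidec, which fuses droplets, was the 1 gene whose treated values were all above the untreated ones, by 0.58 ± 0.23 (adjusted p = 0.160). The other 6 droplet and lipase genes overlapped, between -0.15 for Mttp, which loads triglyceride into lipoproteins, and 0.48 for Pnpla2.

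The 3 calls are 9.09% of the 33 genes, against 7.53% of all named genes called in this comparison, 5.33% lower and 2.2% higher. Groups did not overlap for 11 of the 33, 10 lower and 1 higher, against 33.4% of all genes, 22% lower and 11.4% higher. At an unadjusted p under 0.05 the count was 7 of 33, against 24.5% of all genes. The set as a whole was thus near the background of this comparison. Its median difference was -0.16, against -0.06 over all named genes, and 23 of the 33 differences were negative. Centring each array on its median moved the all-gene median to 0.13 and left 15 of 33 negative. Of the 33, 22 lay below the all-gene median, a count that centring cannot change, and 21 after a further quantile normalization.

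**Figure D2:**
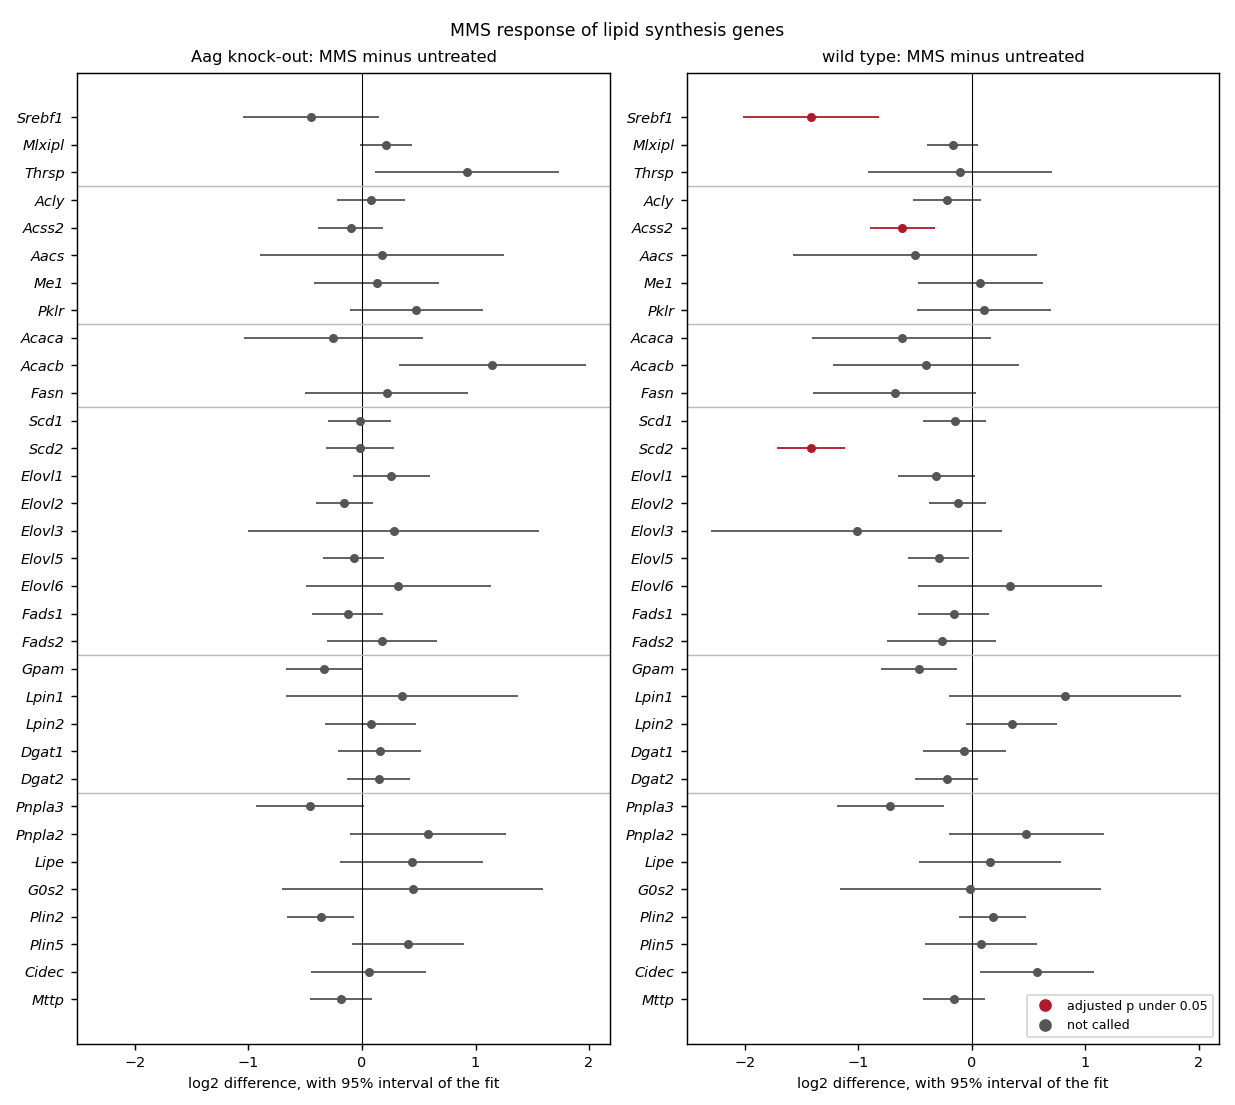
Difference in log2 value, MMS-treated minus untreated, for each of the 33 genes in KO liver (left) and WT liver (right), with the 95% interval of the fit over 12 arrays; red marks an adjusted p under 0.05. Srebf1, Acss2 and Scd2 are red in WT liver, and no gene is red in KO liver.

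In Aag knock-out liver, none of the 33 genes was called after MMS in the limma fit, against 1.7% of all named genes, and 3 passed an unadjusted p under 0.05, against 26.1%. The 3 were Acacb, Thrsp and Plin2. Of the genes called in WT liver, Scd2 read 9.06, 8.89 and 8.94 in MMS-treated KO and 9.01, 9.05 and 8.88 in untreated KO livers, a difference of -0.02 ± 0.14 (95% interval -0.32 to 0.28). The 2 KO groups overlapped, and all 6 values lay between the values of the MMS-treated WT and the untreated WT livers. Acss2 read 12.46, 12.30 and 12.53 in MMS-treated KO and 12.62, 12.50 and 12.46 in untreated KO livers (-0.10 ± 0.13), and its second probe set differed by 0.27 ± 0.16. Srebf1 read 11.14, 10.07 and 11.30 in MMS-treated KO and 11.08, 11.43 and 11.34 in untreated KO livers. Animal 2 of the treated group stood more than 1 unit below the other two, and the difference was -0.45 ± 0.27 (adjusted p = 0.329).

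The same treated animal 2 was lowest for Fasn, which read 12.20, 10.95 and 12.21 in MMS-treated KO and 11.22, 11.53 and 11.95 in untreated KO livers (0.22 ± 0.33). Acly, at 13.53, 13.13 and 13.41 in MMS-treated KO and 13.32, 13.31 and 13.20 in untreated KO livers, and Acaca, at 5.44, 5.75 and 6.44 in MMS-treated KO and 5.27, 6.26 and 6.85 in untreated KO livers, overlapped. Acacb read 11.91, 11.54 and 11.49 in MMS-treated KO livers, all above 10.41, 10.04 and 11.05 in untreated KO livers, with a difference of 1.15 ± 0.37 (adjusted p = 0.102). Mlxipl was likewise above in all 3 animals, at 12.07, 12.09 and 11.96 in MMS-treated KO, against 11.87, 11.83 and 11.78 in untreated KO livers, but by only 0.21 ± 0.10. Thrsp read 13.48, 13.11 and 13.63 in MMS-treated KO and 11.82, 12.22 and 13.41 in untreated KO livers. Untreated animal 3 was the high value of its group, and the difference was 0.92 ± 0.37 (adjusted p = 0.156) with it and 1.39 ± 0.28 (adjusted p = 0.0360) without it.

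Scd1 read 13.83, 13.91 and 13.96 in MMS-treated KO and 13.88, 13.93 and 13.95 in untreated KO livers, and overlapped. Gpam read 12.69, 12.40 and 13.00 in MMS-treated KO and 13.06, 12.95 and 13.08 in untreated KO livers (-0.34 ± 0.15), and Dgat2 13.04, 12.86 and 12.90 in MMS-treated KO and 12.70, 12.68 and 12.97 in untreated KO livers (0.15 ± 0.13). Pnpla3 read 5.62, 5.53 and 5.26 in MMS-treated KO, below 5.99, 6.10 and 5.70 in untreated KO livers (-0.46 ± 0.21, adjusted p = 0.214). Plin2, the perilipin that coats hepatocyte droplets, read 13.01, 13.06 and 13.36 in MMS-treated KO, below 13.47, 13.50 and 13.54 in untreated KO livers (-0.36 ± 0.13, adjusted p = 0.132). Groups did not overlap for 7 of the 33 genes, 3 higher and 4 lower, against 28.5% of all genes, 13.9% higher and 14.6% lower. The median was 0.15, against -0.06 over all genes, with 21 of 33 positive, and 23 of 33 lay above the all-gene median, or 22 after a further quantile normalization.

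Calls among the lipases depended on array weights and on the KO arrays numbered 3. Without both of these arrays, 3 of the 33 genes were called higher after MMS in KO liver. They were Thrsp at 1.28 ± 0.31 (adjusted p = 0.0289), Pnpla2, the adipose triglyceride lipase, at 1.11 ± 0.27 (adjusted p = 0.0291), and Lipe, the hormone-sensitive lipase, at 0.99 ± 0.19 (adjusted p = 0.0173). With all arrays Pnpla2 differed by 0.58 ± 0.31 (adjusted p = 0.274) and Lipe by 0.44 ± 0.28 (adjusted p = 0.364). Lipe read 7.13, 7.12 and 6.07 in MMS-treated KO livers, so that animal 3 alone was within the untreated KO range of 6.03 to 6.73. Leaving out MMS-treated KO animal 3 alone also gave 3 calls, of Gpam (-0.49, adjusted p = 0.0426), Plin2 (-0.47, adjusted p = 0.0406) and Lipe (0.79, adjusted p = 0.0413). With array weights in limma, which kept all 12 arrays, Pnpla2 (0.91, adjusted p = 0.0279) and Lipe (0.80, adjusted p = 0.0230) were called as well. For none of these settings was the share of all named genes called counted, so the counts have no background beside them.

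**Figure D3:**
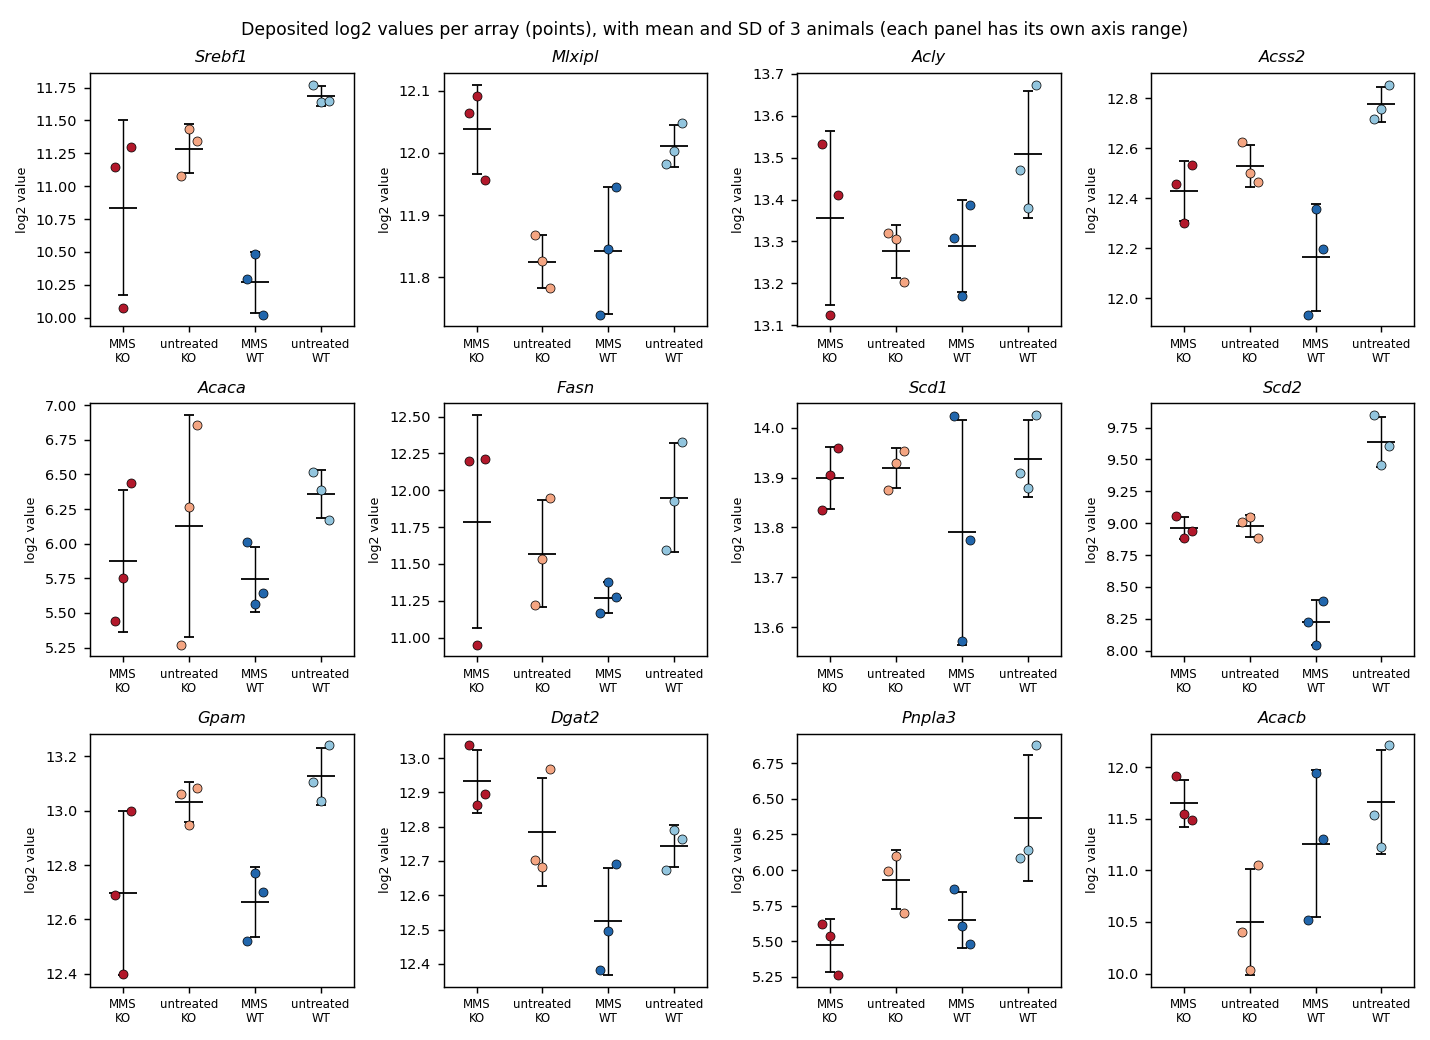
Log2 value on each array (points, 3 animals a group) with the group mean and SD for 12 genes, in the order MMS-treated KO, untreated KO, MMS-treated WT and untreated WT; each panel has its own axis range. Scd2 lies at 8.88 to 9.06 in the 6 KO livers, at 8.05 to 8.39 in MMS-treated WT livers and at 9.45 to 9.85 in untreated WT livers.

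The difference between the MMS responses, KO minus WT, was called for none of the 33 genes and for none of all 12393 named genes (0%) in the limma fit. At an unadjusted p under 0.05 the count was 7 of 33, against 18.5% of all genes. Scd2 had the smallest p of the set, with a difference of responses of 1.40 ± 0.19 (95% interval 0.97 to 1.82, adjusted p = 0.0649). The adjusted p of Scd2 ranged from 0.0147 to 0.223 over 20 alternative settings and was under 0.05 in 6 of them, including each of those without a KO array numbered 3. The second Acss2 probe set had 1.49 ± 0.23 with the same adjusted p of 0.0649, and the probe set used for Acss2 had 0.51 ± 0.18 (adjusted p = 0.209). The others past the unadjusted threshold were Acacb at 1.55 ± 0.53, Srebf1 at 0.97 ± 0.38, Elovl1 at 0.57 ± 0.22, Mlxipl at 0.38 ± 0.15 and, in the other direction, Plin2 at -0.55 ± 0.19, with adjusted p-values of 0.196 to 0.235.

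As deposited, the difference of responses was positive in 3 of 3 regulators, 5 of 5 supply genes, 3 of 3 synthesis genes, 7 of 9 elongation and desaturation genes, 3 of 5 assembly genes and 5 of 8 droplet genes. That is 26 of 33, with a median of 0.30 against 0.06 over all genes. After median centring, which moved the all-gene median to -0.20, 18 of 33 were positive. Relative to the all-gene median, 24 of 33 lay above it as deposited and 25 of 33 after a further quantile normalization. The WT and KO responses were both set against their own untreated animals, but this difference shares all 12 arrays with the comparisons above and below.

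Between the genotypes, none of the 33 genes was called in either treatment. In untreated liver 0.0484% of all named genes were called, and in MMS-treated liver 0.0161%. Scd2 came nearest in both, and in opposite directions: untreated KO livers were below untreated WT livers by -0.66 ± 0.14 (unadjusted p = 0.000549, adjusted p = 0.356), and MMS-treated KO livers were above MMS-treated WT livers by 0.74 ± 0.14 (adjusted p = 0.0793). The second of these had an adjusted p of 0.0326 without MMS-treated KO animal 3 and 0.0487 when the dimmest 25% of probe sets was left out. In untreated liver 2 of the 33 had an unadjusted p under 0.05, against 7.26% of all genes, and groups did not overlap for 8, 7 lower and 1 higher, against 18.6% of all genes, 10.8% lower and 7.8% higher. Srebf1, Mlxipl, Acly, Acss2, Acacb, Scd2 and Elovl1 were lower in KO and Plin2 was higher. Their differences were small for Mlxipl, Acly, Acss2 and Elovl1, at -0.19 to -0.25, and -0.40 for Srebf1. Acacb differed by -1.16 ± 0.37 (adjusted p = 0.527).

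In MMS-treated liver the groups did not overlap for Mlxipl, Scd2 and Dgat2, all higher in KO, which is 3 of the 33 against 19% of all genes, 11.6% higher and 7.4% lower. At an unadjusted p under 0.05 the count was also 3 of 33, against 19.5%. Dgat2 differed by 0.41 ± 0.13 (adjusted p = 0.157), Srebf1 by 0.57 ± 0.27 and Plin2 by -0.37 ± 0.13. Lipe differed by 0.52 ± 0.28 (adjusted p = 0.349) with all arrays and was called without both KO arrays numbered 3, at 0.88 ± 0.18 (adjusted p = 0.0321). The median genotype difference was -0.13 in untreated liver, against -0.02 over all genes, and 0.13 in MMS-treated liver, against 0.03. As deposited, 24 of 33 were negative in untreated liver and 25 of 33 positive in MMS-treated liver. After median centring 19 of 33 were negative in each. Relative to the all-gene median, 23 lay below it in untreated liver and 25 above it in MMS-treated liver.

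**Figure D4:**
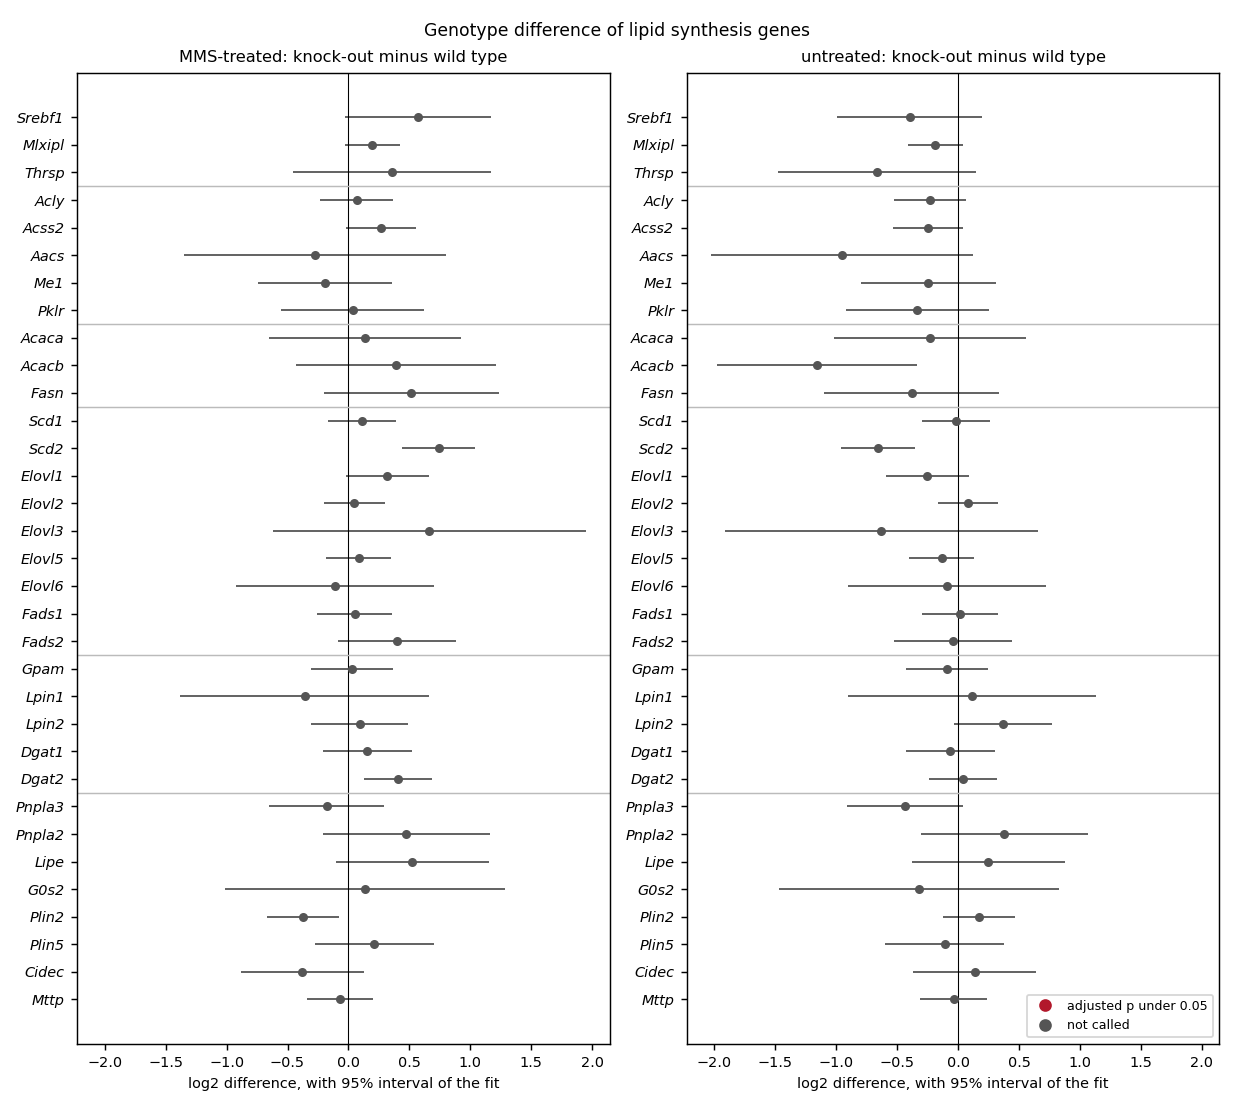
Difference in log2 value, KO minus WT, for each of the 33 genes in MMS-treated liver (left) and untreated liver (right), with the 95% interval of the fit; no gene has an adjusted p under 0.05. Scd2 lies at 0.74 on the left and -0.66 on the right.

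Averaged over both genotypes, 5 of the 33 genes were called lower after MMS and none higher when all 12 arrays entered alike. Scd2 fell by 0.72 ± 0.10 (adjusted p = 0.00266), Srebf1 by 0.93 ± 0.19 (adjusted p = 0.0132), Pnpla3 by 0.59 ± 0.15 (adjusted p = 0.0326), Acss2 by 0.36 ± 0.09 (adjusted p = 0.0329) and Gpam by 0.40 ± 0.11 (adjusted p = 0.0387). The 5 are 15.2% of the set, against 12.5% of all named genes called, 7.49% lower and 5.04% higher, and 6 of 33 had an unadjusted p under 0.05, against 29.2%. For Scd2 the average combines -0.02 in KO and -1.42 in WT liver, for Pnpla3 -0.46 in KO and -0.72 in WT liver, and for Gpam -0.34 in KO and -0.46 in WT liver. Srebf1 and Scd2 were called in 20 of 20 alternative settings, Pnpla3 in 11, Acss2 in 10 and Gpam in 8. All 5 differences were negative under every one of them. Lipases were called higher without KO arrays numbered 3: Pnpla2 at 0.71 (adjusted p = 0.0328) without untreated KO animal 3, Lipe at 0.47 (adjusted p = 0.0498) without MMS-treated KO animal 3, and without both arrays Pnpla2 at 0.80 and Lipe at 0.57 (adjusted p = 0.0154 for each). Gpam was not called without untreated KO animal 3. With array weights Lpin1, Lpin2, Pnpla2 and Lipe were called higher, at 0.96, 0.37, 0.82 and 0.52 (adjusted p = 0.0401, 0.0310, 0.00492 and 0.0177). No share of all named genes called was counted with these weights or without these arrays. Over all 33 genes the median was -0.04, against -0.06 over all genes, with 19 negative.

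The 18 genes with more than 1 probe set had 26 others. Their differences had the sign of the probe set used in 24 of 26 for MMS in WT liver, 18 of 26 for MMS in KO liver and 20 of 26 for the difference of responses. Called were 2 of the 26 for MMS in WT liver, against 6.44% of all probe sets, and 1 of 26 for the averaged response, against 11.3%. For Scd1 the dimmer probe set read 11.54, 11.29 and 11.37 in MMS-treated KO, above 10.68, 10.40 and 11.07 in untreated KO livers, and 10.85, 11.34 and 10.51 in MMS-treated WT and 11.25, 10.92 and 12.06 in untreated WT livers. It differed by 0.68 ± 0.29 after MMS in KO liver and by -0.51 ± 0.29 in WT liver, neither called. The dimmer Thrsp probe set differed by 2.34 ± 0.55 after MMS in KO liver (adjusted p = 0.0566). For Acly, Elovl1 and Elovl5 the probe set used is of a type (_x_) that can bind related transcripts, and for Dgat1 it is shared between transcripts (_s_).

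Related genes of the pathway were followed in 5 further lists. In WT liver the shares called, 11.1% of the SREBP and LXR control list and 14.3% of the droplet list, are 1 and 2 genes, against 7.53% of all named genes, and are given as single genes. In the control of SREBP and LXR, 1 of 9 measured genes was called: Insig2, which holds the SREBP precursor in the endoplasmic reticulum, was 1.02 ± 0.24 lower after MMS in WT liver (adjusted p = 0.0353). It read 11.65, 12.09 and 11.78 in MMS-treated WT, against 13.02, 12.78 and 12.79 in untreated WT livers, and 11.72, 12.06 and 11.60 in MMS-treated KO, against 12.72, 12.62 and 11.73 in untreated KO livers. Untreated KO animal 3 was the exception, at a treated level. Of 14 measured genes for droplets and lipolysis, 2 fell in WT liver: Lpl, the lipoprotein lipase, by 1.06 ± 0.22 (adjusted p = 0.0227) and Lipa, the lysosomal acid lipase, by 0.79 ± 0.14 (adjusted p = 0.0128). Averaged over genotypes, where 12.5% of all named genes were called, Insig2, Lpl and Lipa were also lower, Hilpda, an inhibitor of the adipose triglyceride lipase, was 0.51 ± 0.14 higher, Tkt, a transketolase, was 0.64 ± 0.16 higher, and Acsl4, an acyl-CoA synthetase, was 0.61 ± 0.11 lower. In WT liver none of 7 genes for substrate and NADPH supply, the list of Tkt, and none of 12 for fatty acid activation, the list of Acsl4, was called. No gene was called among 12 measured for glycerolipid assembly, and none on any of the 5 lists in KO liver, between genotypes or for the difference of responses.

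Genes of the liver clock also differed between groups. In WT liver 8 of 14 measured clock genes were called after MMS, 5 higher and 3 lower, against 7.53% of all named genes. In KO liver 0 of 14 were called with all 12 arrays, against 1.7%, and this was not repeated without untreated KO animal 3. The difference of the MMS responses was also called for 0 of 14, against 0%. Dbp, a clock output factor, read 12.49, 12.16 and 12.83 in MMS-treated KO and 11.31, 10.64 and 13.04 in untreated KO livers, and 12.49, 12.77 and 12.64 in MMS-treated WT, against 8.19, 8.14 and 8.58 in untreated WT livers. Arntl, the core clock factor, read 7.57, 8.37 and 7.64 in MMS-treated KO and 10.07, 10.20 and 7.06 in untreated KO livers, and 7.75, 7.79 and 7.59 in MMS-treated WT, against 10.83, 10.81 and 11.01 in untreated WT livers. In the untreated KO group, animal 3 had the clock values of treated livers and was also apart for Elovl3 (9.79, against 12.24 and 12.22 in animals 1 and 2), G0s2, the lipase inhibitor (11.34, against 9.34 and 9.44), and Thrsp. Dbp, Nr1d1 and Nr1d2 were higher in untreated KO than in untreated WT liver (3.36, 3.60 and 1.49, all called), so the untreated groups also differed from each other on the clock. These are 3 of the 14, against 0.0484% of all named genes called in that comparison. The part of clock phase in the lipid gene differences was not tested.

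**Figure D5:**
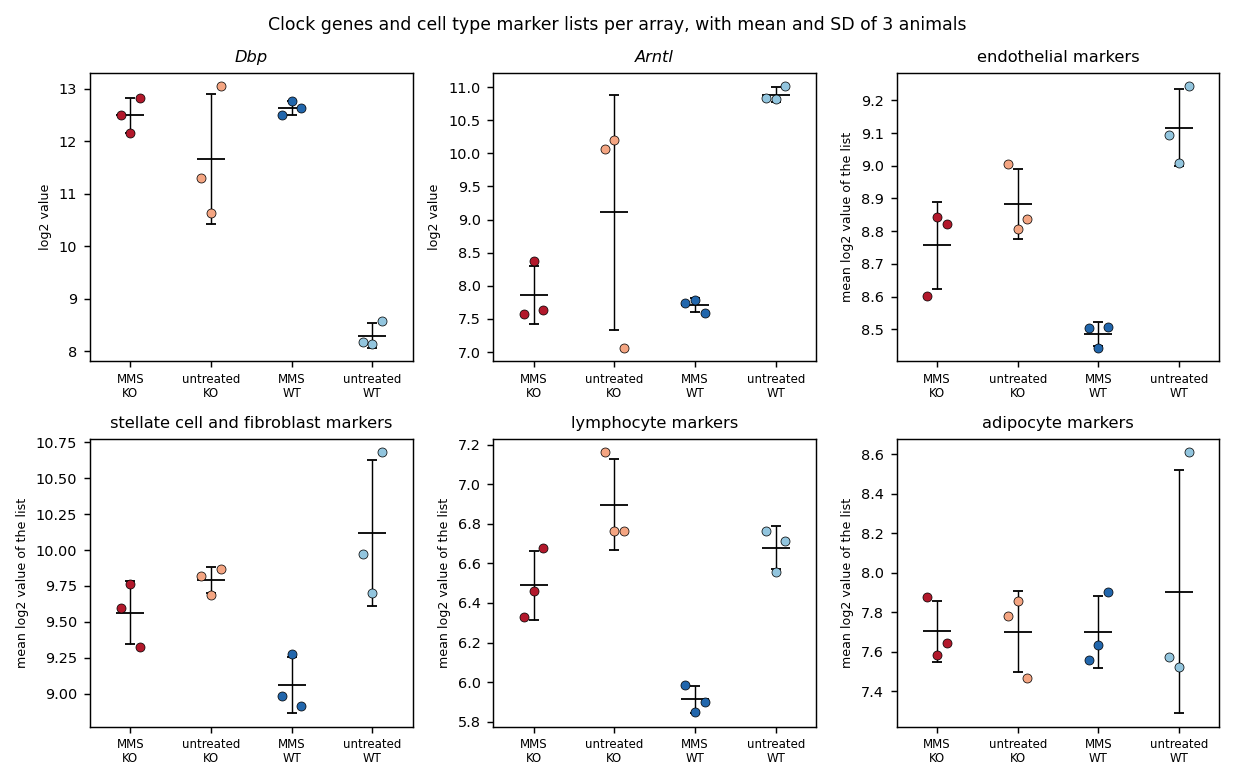
Log2 values of Dbp and Arntl and the mean log2 value of 4 cell type marker lists on each array (points, 3 animals a group), with group mean and SD; groups run from MMS-treated KO to untreated WT. Untreated KO animal 3 lies at 13.04 for Dbp and 7.06 for Arntl, with the treated livers, and MMS-treated WT livers are lowest for endothelial, stellate cell and lymphocyte markers.

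Markers of fasting and of other cell types moved as well. After MMS in WT liver, 7.53% of all named genes were called, 5.33% lower and 2.2% higher. In that comparison 5 of 11 measured fasting and glucocorticoid genes were called: Pdk4 fell by 1.77, Ppargc1a fell by 1.62, G6pc fell by 1.38, Tsc22d3 fell by 1.85, and Fgf21 rose by 0.59. Of all 11, 5 differences were positive and 6 negative, the highest being 1.42 in a gene not called. After MMS in KO liver 0 of the 11 were called, against 1.7% of all named genes, with 4 positive and 7 negative differences of -0.74 to 1.76. Among cell type markers in WT liver, 4 of 6 endothelial, 2 of 6 stellate cell and fibroblast and 2 of 5 lymphocyte markers were called lower. Called higher were 2 of 4 neutrophil markers, and macrophage markers split with 1 of 6 called each way. The mean endothelial value per array was 8.60 to 8.84 in MMS-treated KO, 8.81 to 9.005 in untreated KO, 8.44 to 8.51 in MMS-treated WT and 9.01 to 9.24 in untreated WT livers. MMS-treated WT livers were thus lowest and untreated WT livers highest, as for Scd2, and the part of these cells in the Scd2 difference was not tested. Of 6 measured adipocyte markers 1 was called after MMS in WT liver, Lep, which was 0.57 higher at a low reading, while 4 of the 6 were negative, with a median of -0.18 and Fabp4 at -1.03 (adjusted p = 0.0725). Adipoq read 7.02 in untreated WT animal 3, against 2.85 to 5.26 on the other 11 arrays. Without untreated WT animal 3 the Scd2 difference in WT liver was still called in limma. Those of Srebf1 (adjusted p = 0.0571) and Acss2 (adjusted p = 0.0958) were not. Srebf1 differed by -1.44 without this array and -1.42 with it, and Acss2 by -0.57 without it and -0.61 with it. Both calls were also lost without certain other WT arrays, as given above. The part of adipocytes in these differences was not tested. Pancreatic acinar markers averaged 9.47 in MMS-treated KO animal 1, against 6.33 to 7.74 elsewhere, and 0 of 4 were called. Of 5 bile duct markers, 1 was called after MMS in KO liver, against 1.7% of all named genes. It was Krt19, which was 1.90 ± 0.40 higher, and none was called in WT liver.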

How the data were processed

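Total RNA of 12 livers was extracted with Trizol, labelled with biotin and hybridised to 1-colour Affymetrix arrays, 1 per animal, per the labels. The authors deposited 1 value per probe set and array, computed with RMA per the submitters' processing notes, whose version and chip definition were not stated. Which arrays were normalized together was not stated either. These deposited values were taken as log2, since they lie in the range that RMA gives on that scale. Array medians ran from 7.42 to 7.75. The table gave no detection call, so absent RNA cannot be separated from dim signal, and 3 animals a group limit the precision. Groups came from the sample titles, which number separate animals, and there were 0 extra sample columns.

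Of 22690 probe sets, 64 controls were set aside and 22626 tested. The platform annotation gave 1 symbol to 20380, several to 691 and none to 1555, and symbols were updated through RefSeq gene identifiers. Each of 6 comparisons was a two-sided contrast in limma 3.58.1 (R 4.3.3) over all 12 arrays, with 1 mean per group and 8 residual degrees of freedom. P-values were Benjamini-Hochberg adjusted over all probe sets and called under 0.05. The fit was tested on simulated data. The members, roles, related lists and markers were chosen with earlier results of these data known. Values per array are given for genes called in any comparison and for Srebf1, Mlxipl, Acaca, Fasn, Acly, Scd1, Dgat2 and Gpam. Others may be named where their groups do not overlap, and Thrsp, Lipe, Pnpla2, Lpin1, G0s2 and the per-array values of Plin2, Acacb and Elovl3 were picked out after they were seen. Alternatives were a further quantile normalization, median centring, leaving out the dimmest 25% of probe sets, trended robust variances, weighted arrays, a block for animal number, averaging the probe sets of each gene, fitting the compared groups alone, and leaving arrays out. Promoter windows came from the RefSeq table for GRCm38.p6.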

Additional observations from a re-analysis of the deposited data

How the results depend on the processing

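Over the 33 genes and 6 comparisons, 122 called values stayed called under an alternative, 41 lost the call with their direction kept, and none reversed (0). With array weights (0.303 to 2.80) the number of genes called was 8 for MMS in WT liver, 6 for MMS in KO liver, 1 between untreated genotypes, 2 between MMS-treated genotypes, 4 for the difference of responses and 9 for the averaged response, against 3, 0, 0, 0, 0 and 5 as reported. Of these, 3 of the 8 and 4 of the 9 were higher. The 6 in KO liver were Thrsp, Acacb, Pnpla2 and Lipe, higher, and Gpam and Plin2, lower. Between MMS-treated genotypes the 2 were Scd2, higher in KO, and Plin2, lower in KO. For the difference of responses the 4 were Srebf1, Acacb and Scd2, positive, and Plin2, negative. Leaving out low probe sets gave 1 call (Scd2) between MMS-treated genotypes and 1 for the difference of responses, and trended robust variances gave 1 (Scd2) for the difference of responses. Without both KO arrays numbered 3 the counts were 3 for MMS in KO liver, 2 between MMS-treated genotypes and 1 for the difference of responses. Median centring left 2 calls for the averaged response. Leaving out 1 array at a time gave 1 to 4 calls for MMS in WT liver, 0 to 3 in KO liver, 0 between untreated genotypes, 0 to 1 between MMS-treated genotypes, 0 to 1 for the difference of responses and 2 to 6 for the averaged response. The lowest WT count, 1, came without untreated WT animal 1 or 3 or MMS-treated WT animal 3. The causes were not tested. The arrays were not treated as paired by animal number, and whether equal numbers share a day or batch was not given. Same-numbered arrays of different groups deviated together with correlations of -0.475 to 0.403, and differently numbered ones with -0.472 to 0.524. With the animal number as a replicate block the averaged response kept 3 calls (Gpam, Scd2 and Srebf1), and no other count changed by over 1.5 times. Signal over background is unknown for these values, so the low readings of Pnpla3, Acaca, Cidec, Lipe, Lep, the dimmer Gpam probe set and the dimmest Scd2 probe set cannot be told from background.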
